A study of Mus musculus with 32 samples.

Results

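Sites of HNF4A occupancy were examined at 7 genes that move, store or sense cholesterol in the enterocyte: Npc1l1, Abcg5, Abcg8, Abca1, Soat2, Scarb1 and Srebf2. Peaks from the HNF4A ChIP-seq lists of 8 mice were merged wherever they shared at least 1 bp, and the merged sites lying in the body of any of these genes or within 20 kb of it were kept. This gave 36 of the 45552 merged sites in the genome. HNF4A ChIP-seq had been performed on jejunal intestinal epithelial cell (IEC) preparations of 4 germ-free mice (GF+HFM) and 4 mice raised germ-free and then colonized for 14 days with the fecal microbiota of specific-pathogen-free donors (CV+HFM). All mice were C57BL/6J males of 10 to 12 weeks, and both groups had received a high-fat meal (HFM) of egg yolk emulsion by gavage 2 hours before collection, so no unfed group enters these comparisons. The preparations were not sorted and, by the study's methods, held some crypt epithelium and villus mesenchyme besides the villus epithelium. Each library came from a different mouse. For each library the deposited list gives the position and width of its peaks, without any measure of strength, and the sequencing depth is unknown.

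Dietary and biliary cholesterol enters the enterocyte from the lumen through NPC1L1, and ABCG5 with ABCG8 pumps plant sterols and cholesterol back out. Inside the cell SOAT2 (ACAT2) esterifies cholesterol for storage and for chylomicrons, while ABCA1 at the basolateral membrane loads it onto apolipoprotein A-I. SCARB1 is a receptor for high-density lipoprotein, and SREBF2 is the transcription factor that raises synthesis and uptake genes when membrane sterol is low. HNF4A is a nuclear receptor of the liver, gut and kidney that binds DNA as a homodimer, at paired copies of an AGGTCA-like element, and takes part in enterocyte differentiation.

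All 7 genes had at least 3 HNF4A sites. Abcg5 had 9 sites, Scarb1 8, Npc1l1 7, Abcg8 7, Abca1 5, Soat2 4 and Srebf2 3. The Abcg5 and Abcg8 windows overlap, and each of the 7 Abcg8 sites is also an Abcg5 site. Across 22367 protein-coding genes the median was 2 sites in a window built the same way, and 34.5% of genes had none. Abcg5 stood at the 93.7th percentile of genes by number of sites, Scarb1 at the 91.5th, Npc1l1 and Abcg8 at the 88.6th, Abca1 at the 79.8th, Soat2 at the 73.4th and Srebf2 at the 65.5th. Per 100 kb of window the order changed for the long genes: Abca1, which spans 129 kb, held 2.96 sites and stood at the 57th percentile, and Srebf2 held 3.06 sites and stood at the 57.5th. Abcg5 remained highest, with 13.9 sites per 100 kb (94.5th percentile).

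**Figure D1:**
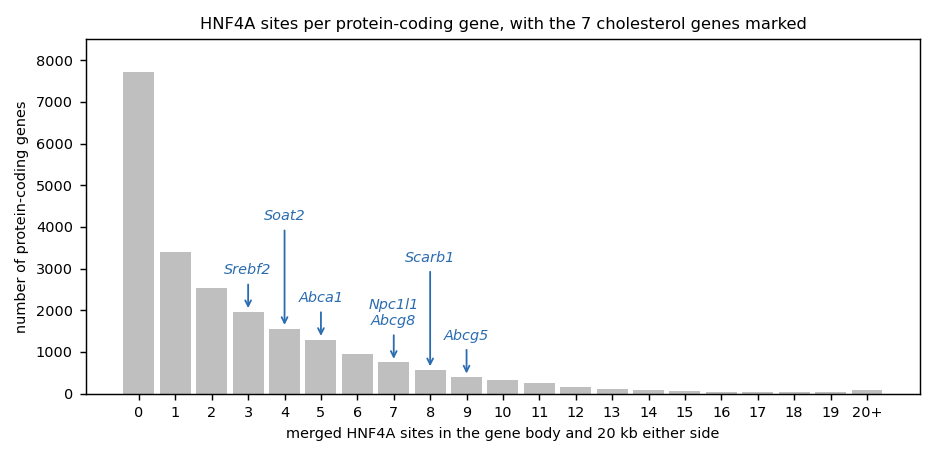
Number of merged HNF4A sites in the gene body and 20 kb either side (x axis) against the number of protein-coding genes with that many sites (y axis), with arrows marking the cholesterol genes. The 7 genes lie between 3 and 9 sites, above the median gene with 2.

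A site lay over the start of 4 of the 7 genes (Npc1l1, Abcg5, Abcg8 and Soat2), compared with 14.8% of protein-coding genes. Because Abcg5 and Abcg8 are transcribed away from each other from adjoining starts, these 4 starts were covered by 3 sites. Of the 36 sites, 16 lay in introns, 5 over exons and 12 outside genes. Introns held 44.4% of the member sites and 40.8% of all merged sites, and exons held 13.9% and 8.92%. The nearest start of a protein-coding gene was that of a member for 27 sites and that of another gene for 9, among them Nipsnap3b for 3, Csad and Dync2li1 for 2 each and Nudcd3 for 1. For those 9 sites proximity does not single out the cholesterol gene.

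**Figure D2:**
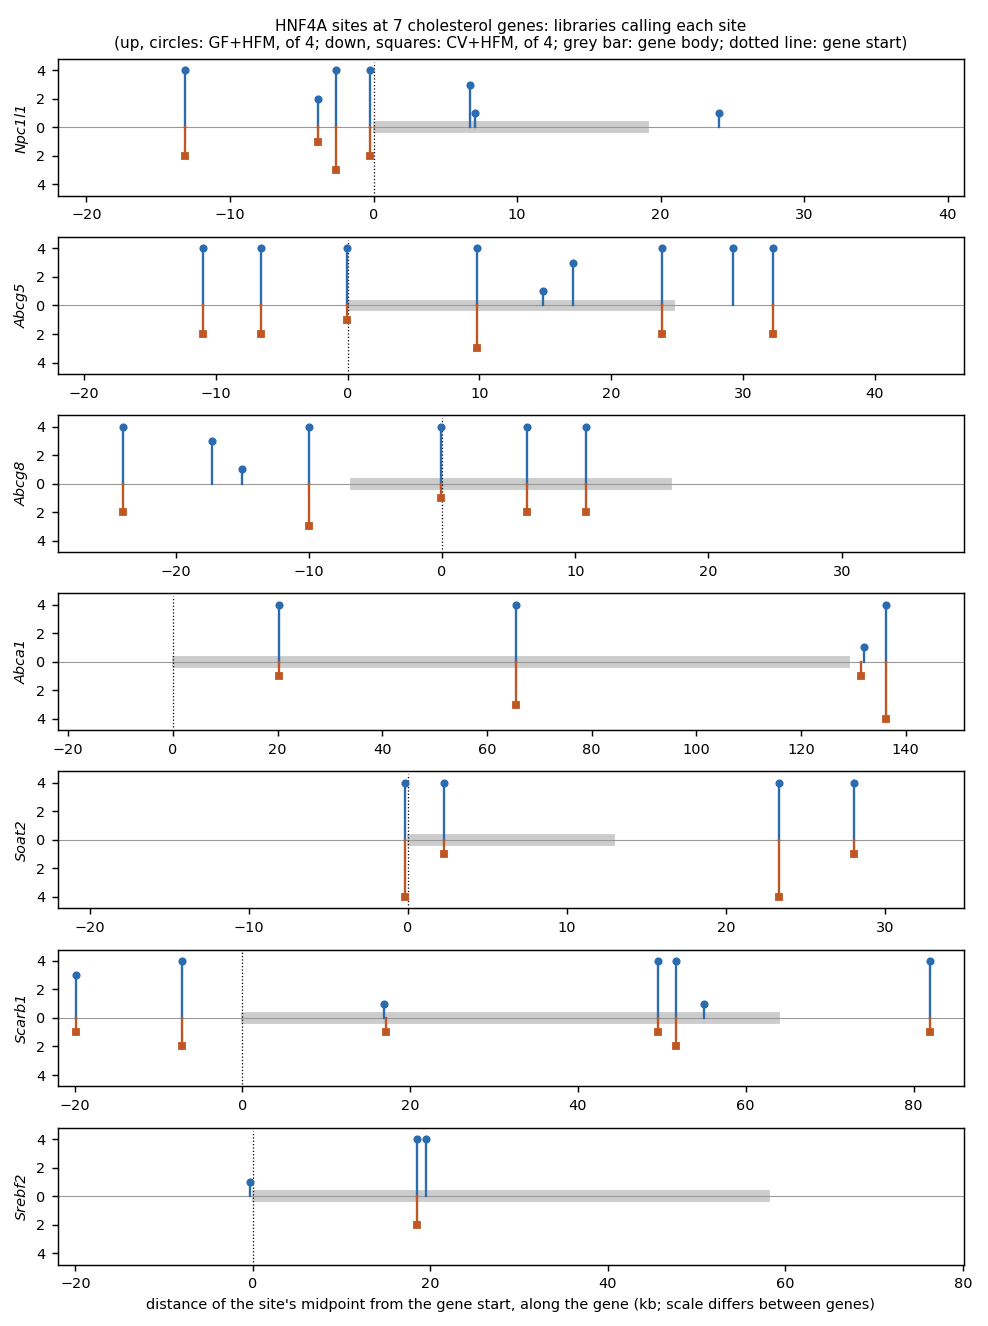
Position of each site along each gene, as the distance of its midpoint from the gene start in kb (x axis), with the number of GF+HFM libraries calling it drawn upward and the number of CV+HFM libraries drawn downward (y axis). Stems reaching 4 in both directions stand at the Soat2 start, 23.3 kb from it and 136 kb from the Abca1 start.

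The question put to these sites was whether colonization changed HNF4A occupancy after the meal. A library was taken to call a site if any of its peaks lay in it. The 4 GF+HFM libraries called 27, 27, 29 and 27 of the 36 member sites (27.5 ± 1, SD, n = 4), and the 4 CV+HFM libraries called 25, 5, 15 and 4 (12.2 ± 9.84, SD, n = 4). The groups did not overlap, but CV+HFM 1 came within 2 sites of the GF+HFM libraries. Whole lists differed in the same order: they held 31061 to 36846 peaks in GF+HFM and 29345, 9206, 21033 and 4533 in CV+HFM, and called 64 to 76.4% and 60.8, 19.2, 43.3 and 8.97% of all merged sites. As a share of a library's own peaks, those at the cholesterol genes made up 0.0899 ± 0.00854% in GF+HFM mice and 0.0817 ± 0.0192% in CV+HFM mice (SD over 4 mice), a difference smaller than the spread within either group. When each list was reduced to its 4533 widest peaks, the length of the shortest list, the libraries called 3, 6, 4 and 4 of 7 remaining member sites in GF+HFM and 6, 3, 4 and 4 in CV+HFM, and the difference between the means was 0. The narrowest peak kept was 52 bp in CV+HFM 4, whose list stayed whole, and 830 bp in GF+HFM 4. Neither the share nor the equal lists can show a change common to all sites. The number of peaks in a list depends on depth and enrichment, which the lists do not hold, and their part in the lower CV+HFM counts was not tested. In these bulk preparations fewer cells with HNF4A at a site and less HNF4A per cell cannot be told apart.

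**Figure D3:**
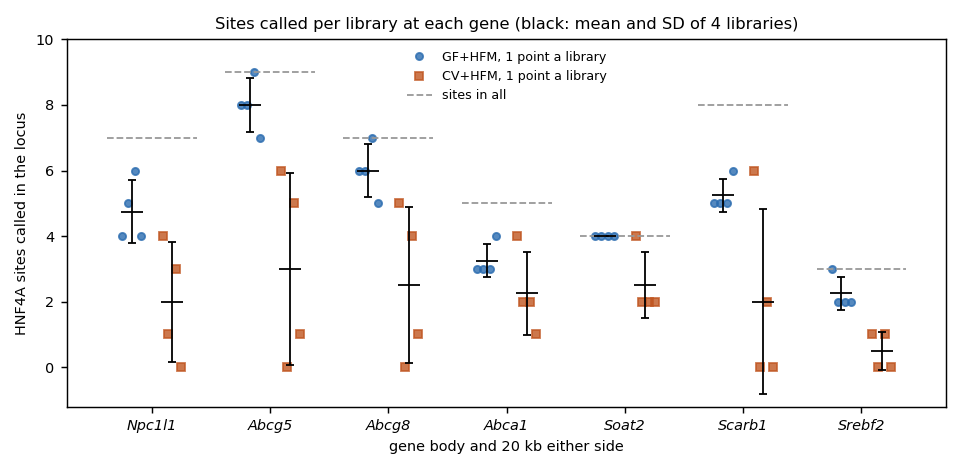
Number of sites called at each gene (y axis) by each library, with circles for GF+HFM, squares for CV+HFM, black marks for the mean and SD of 4 libraries and a dashed line for the number of sites in all. CV+HFM 1 is the highest CV+HFM point at each gene, alone or level with CV+HFM 3 at Srebf2.

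By site, 31 of 36 were called in more GF+HFM mice than CV+HFM mice, which is 86.1% beside 86.5% of all merged sites. The share at the cholesterol genes was close to that of the genome. Another 3 sites were called in equal numbers. There were 2 sites called in more CV+HFM libraries (2.86% of all merged sites), each by CV+HFM 1 alone. All 8 libraries called 3 member sites, beside 7.56% of all merged sites, and 2 were called in all 4 GF+HFM mice and 0 CV+HFM mice, beside 2.79%. A site called 4 to 0 is the most extreme outcome possible, with p = 0.0286 by Fisher's exact test (two-sided). After adjustment over all 45552 sites no member site passed, and neither did any other site (0% called at an adjusted p of 0.05, 1269 sites at an unadjusted one, smallest adjusted p = 0.824 by Fisher's exact test). With 4 libraries against 4, no site could reach a smaller p. The 1269 sites that reached it were too few to pass the adjustment, so this test cannot decide on single sites. Without CV+HFM 1, 8 of 34 member sites were called in every GF+HFM and no CV+HFM library, beside 10.9% of all sites, and without GF+HFM 4 these were 4 of 36, beside 3.95%.

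Among the 23 member sites called in all 4 GF+HFM libraries, CV+HFM 1 called 21, CV+HFM 2 called 5, CV+HFM 3 called 15 and CV+HFM 4 called 4. The mean was 48.9 ± 35.6% (SD, n = 4). For the 23049 such sites in the genome it was 55.9 ± 34.8%. The member share was lower than the genome's in CV+HFM 2 (21.7% against 37.1%) and CV+HFM 3 (65.2% against 78%), and within 1 percentage point of it in the other libraries.

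Peak width was the only graded measure the lists offered. A library's widest peak in the site was ranked by width among all peaks of that library. The rank was expressed as a percentile, so that 100 stands for the widest peak of that mouse. The lists held 4533 to 36846 peaks, so equal percentiles are not equal ranks between libraries. In a short list, fewer peaks are wider than one at a given percentile than in a long list. Over the 23 sites called in all 4 GF+HFM libraries the median of the mean GF+HFM width percentile was 56, beside 62 for all such sites. The median was 37.5 for the 2 sites called by no CV+HFM library, 43.6 for 6 sites called by 1 library, 59 for 9 called by 2, 86.1 for 3 called by 3 and 85.6 for 3 called by 4. The medians of all such sites in the genome were 30.7, 40.7, 58.2, 73.9 and 86.7. In the whole set, sites with narrower GF+HFM peaks were called by fewer CV+HFM mice. The member medians rose likewise up to 3 CV+HFM mice and did not rise further, with 3 sites in each of the last classes.

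**Figure D4:**
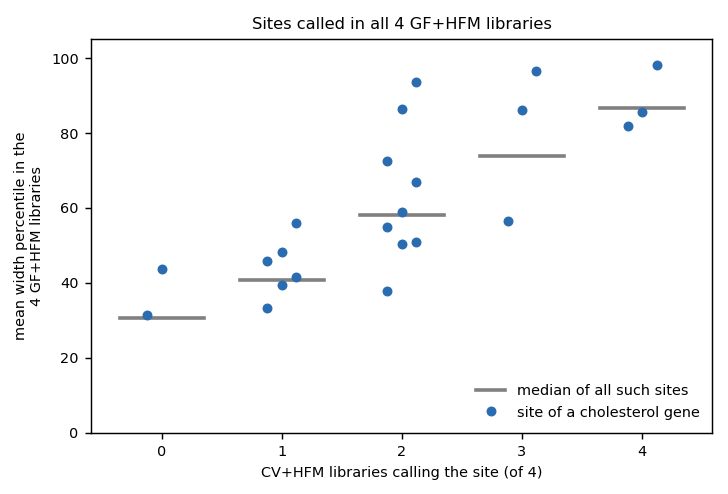
Mean width percentile in the 4 GF+HFM libraries (y axis) of the 23 member sites called in all of them, by the number of CV+HFM libraries calling the site (x axis). Points are member sites and grey bars are medians of all merged sites of the same class, rising from 30.7 to 86.7.

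Npc1l1, the uptake transporter, lies on the minus strand at chr11:6111016-6130146 (mm9). Its most often called sites lay upstream and over the start. The start site, chr11:6129692-6131149, was called in 4 GF+HFM libraries, with width percentiles of 87, 91.1, 98.5 and 98.3, and in CV+HFM 1 and CV+HFM 3, with 98.8 and 29.9. CV+HFM 1 stood as high there as any GF+HFM library, and CV+HFM 2 and CV+HFM 4 called no peak. The merged site covers the start, but not every peak in it does. The peaks of GF+HFM 2 and CV+HFM 3, and the widest peak of GF+HFM 1, lie wholly upstream of the start. A site centered 2.64 kb upstream was called in 4 GF+HFM mice and 3 CV+HFM mice, and its width percentile ranged from 61 to 99 in GF+HFM and from 34.2 to 63 in CV+HFM, overlapping between 61 and 63. The sites 13.1 kb and 3.87 kb upstream were called in 4 and 2 GF+HFM mice and in 2 and 1 CV+HFM mice. In exon 7 a narrow site of 232 bp was called in 3 GF+HFM libraries at percentiles of 7.04, 1.79 and 1.32. The site over exon 8 and the site 24.1 kb from the start were called in 1 GF+HFM library each. CV+HFM 4 called none of the 7 Npc1l1 sites.

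The stretch of the Npc1l1 start site shared by 6 libraries lies upstream of the transcript. Its 200 bp window is given as the reference sequence of the best-covered bases, plus strand, chr11:6130829-6131028 (mm9), with none of the motifs searched below.
Npc1l1 start site: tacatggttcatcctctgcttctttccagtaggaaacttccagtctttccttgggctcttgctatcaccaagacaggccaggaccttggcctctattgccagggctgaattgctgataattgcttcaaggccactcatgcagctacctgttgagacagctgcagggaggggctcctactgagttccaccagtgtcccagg

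Abcg5 (minus strand, chr17:85057574-85082351) and Abcg8 (plus strand, chr17:85075642-85099673) encode the 2 parts of a single sterol exporter. For Abcg8 the start is that of its transcript with the most exons, at 85082494. Its annotated body begins further upstream, inside Abcg5 and outside the site at this start. A single site, chr17:85082113-85082661, covered the Abcg5 start and this Abcg8 start. Its width percentiles in GF+HFM were 81.1, 26.6, 62.9 and 53.6, and CV+HFM 1 called it at 66.2, within the GF+HFM range. The other 3 CV+HFM libraries called no peak over the shared start (Fisher's exact test, p = 0.143, adjusted p = 0.824). The part of its best-covered window that lies outside every annotated exon, plus strand, chr17:85082352-85082460, is printed because a single site covered both starts, and it holds none of the motifs searched.
Abcg5/Abcg8 start site: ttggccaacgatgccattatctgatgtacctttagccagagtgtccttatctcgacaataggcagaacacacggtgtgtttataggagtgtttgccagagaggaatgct

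The widest Abcg5 site was not at the start. It lay over coding exons 5 and 6, chr17:85071555-85073478, and joined 15 peaks of 7 libraries into 1924 bp. Its width percentiles were 98.9, 89.4, 98.8 and 99.5 in GF+HFM and 91.8, 57.3 and 26.5 in CV+HFM 1, 3 and 4. As percentiles of lists of unequal length, CV+HFM 1 fell inside the GF+HFM range and the other 2 below it. Peaks of all 7 libraries overlapped on 58 bp of this site, chr17:85072000-85072057. Inside Abcg5 the intron 12 site was called in 4 GF+HFM mice and 2 CV+HFM mice, and 2 intron 10 sites in 3 and 1 GF+HFM libraries and no CV+HFM library. Inside Abcg8, intron 3 and intron 6 each held a site called in 4 GF+HFM mice and 2 CV+HFM mice.

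Beyond the 3' end of Abcg5 were 2 sites inside the body of Dync2li1, a cilium gene. The site chr17:85052880-85053320, 29.3 kb from the Abcg5 start, was called in 4 GF+HFM libraries at width percentiles of 16.6, 27, 51.5 and 29.9 and in no CV+HFM library. It was thus a site of middling to narrow width in every GF+HFM mouse (Fisher's exact test, p = 0.0286, adjusted p = 0.824). It was not called 4 to 0 when peaks narrower than 300 bp were left out or when at least 50% of the site had to be covered. The neighboring site, 32.3 kb from the Abcg5 start, was called in 4 GF+HFM mice and 2 CV+HFM mice, but the peaks of CV+HFM 1 and CV+HFM 3 there do not overlap.

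**Figure D5:**
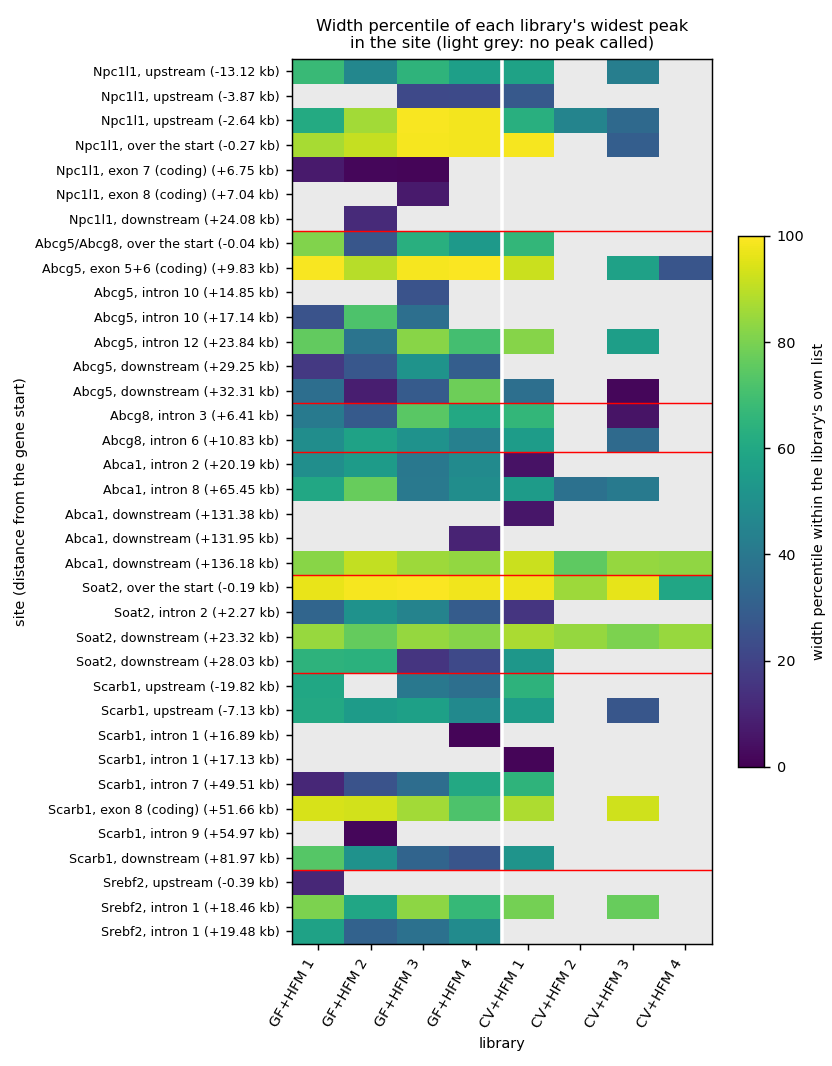
Width percentile of the widest peak of each library (columns) in each of the 36 sites (rows, by gene and distance from its start), on a color scale from 0 to 100, with light grey where no peak was called. The rows filled across all 8 columns are the Soat2 start site, the Soat2 site 23.3 kb from the start and the Abca1 site 136 kb from the start.

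Soat2, which esterifies cholesterol, lies on the plus strand at chr15:101980957-101993905, and each of its 4 sites was called in all 4 GF+HFM libraries. CV+HFM 1 called 4 of them and the other CV+HFM libraries called 2 each. In CV+HFM 4 the peak called at the start site lies wholly upstream of the start itself. The site, chr15:101979968-101981572, was called in all 8 mice. Its widest peak measured 848, 871, 1605 and 1331 bp in GF+HFM and 807, 282, 626 and 122 bp in CV+HFM, and stood at percentiles of 96.8, 98.7, 99.6 and 97.7 and of 97.3, 85.2, 96.4 and 59.1. By percentile, CV+HFM 1 stood inside the GF+HFM range and CV+HFM 3 just below it, while CV+HFM 2 and CV+HFM 4 stood lower. Those 2 lists are the shortest, so their percentiles are not equal in rank to those of the GF+HFM lists. For the limma test, widths were ranked again within each library, among only the 3445 sites called in all 8 libraries. Normal scores of these ranks are another scale than the percentiles printed here. On that scale, the CV+HFM minus GF+HFM difference was -0.685 ± 0.391 (SE), which did not pass the test (limma adjusted p = 0.495).

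The Soat2 start window, plus strand, chr15:101980643-101980842, lies just upstream of the transcript and is given because it was called in every mouse. Capitals mark a match, with 1 mismatch, to CAAAGTCCA, a core sequence favored by HNF4 receptors.
Soat2 start site: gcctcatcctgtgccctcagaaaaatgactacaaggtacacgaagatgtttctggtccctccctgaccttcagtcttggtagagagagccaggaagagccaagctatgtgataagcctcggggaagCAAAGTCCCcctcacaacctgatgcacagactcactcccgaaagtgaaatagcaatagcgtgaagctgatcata

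The Soat2 site at chr15:102003902-102004649, 23.3 kb from the start, was also called in all 8 libraries, and its nearest start was that of Csad, an enzyme of taurine synthesis. Its percentiles were 84.5, 76.3, 84.3 and 81.9 in GF+HFM and 87.3, 84, 80.4 and 84.7 in CV+HFM. The ranges overlapped, and the difference on normal scores was 0.66 ± 0.367 (SE), not past the test (limma adjusted p = 0.487). CV+HFM 4, which had the shortest list, kept this site among its wider peaks. The other 2 Soat2 sites, in intron 2 and 28 kb from the start inside Csad, were each called in 4 GF+HFM mice and in CV+HFM 1.

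Abca1, which exports cholesterol to apolipoprotein A-I, had no site within 1 kb of its start although it spans 129 kb (minus strand, chr4:53043659-53172767). Its intron 2 and intron 8 sites, 20.2 and 65.5 kb from the start, were called in every GF+HFM mouse and in 1 and 3 CV+HFM libraries. The site called in all 8 mice lay past the 3' end at chr4:53036196-53036974, 136 kb from the Abca1 start and 11444 bp from the start of Nipsnap3b, its nearest. Width percentiles there were 82.4, 90.8, 85.2 and 83.9 in GF+HFM and 91.9, 75.1, 84.2 and 83.5 in CV+HFM. The ranges overlapped throughout, and the difference was 0.464 ± 0.364 (SE, limma adjusted p = 0.621). A site of 181 bp at chr4:53041296-53041476 was called only by CV+HFM 1, at a percentile of 6.08, and a site of 255 bp nearby only by GF+HFM 4, at 9.8.

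The best-covered window of the distant Abca1 site, plus strand, chr4:53036452-53036651, is given because it was called in every mouse, and it holds none of the motifs searched.
Abca1 downstream site: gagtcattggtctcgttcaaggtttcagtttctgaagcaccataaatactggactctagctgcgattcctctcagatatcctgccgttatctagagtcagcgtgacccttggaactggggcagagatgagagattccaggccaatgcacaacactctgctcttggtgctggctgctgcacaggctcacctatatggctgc

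Scarb1, the high-density lipoprotein receptor (minus strand, chr5:125757457-125821464), had 8 sites and none over its start. CV+HFM 1 called 6 of them, CV+HFM 3 called 2, and CV+HFM 2 and CV+HFM 4 called none. The widest lay over exon 8, chr5:125769395-125770205, with percentiles of 94, 93.1, 86 and 72.2 in GF+HFM and of 87.8 and 92.8 in CV+HFM 1 and CV+HFM 3. Where it was called in CV+HFM, its width percentile was within the GF+HFM range. Sites 7.13 kb upstream, in intron 7 and 82 kb from the start were called in every GF+HFM mouse and in 2, 1 and 1 CV+HFM libraries. The site 19.8 kb upstream was called in 3 GF+HFM mice and in CV+HFM 1. Of the remaining 3 sites, each called in 1 library, that at chr5:125804250-125804420 in intron 1 was called by CV+HFM 1 at a percentile of 1.52, near the narrow end of its list.

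Srebf2, the regulator of sterol synthesis, had the fewest sites (plus strand, chr15:81977696-82035806). A peak of 183 bp lay 300 bp upstream of its start, chr15:81977214-81977396, and was called by GF+HFM 1 alone at a percentile of 11.2. Both other sites were in intron 1. The site chr15:81995823-81996487 was called in 4 GF+HFM mice (80.4, 59.3, 83 and 66.9) and in CV+HFM 1 and CV+HFM 3 (79.1 and 76.8), whose percentiles fell within the GF+HFM range. The site chr15:81996949-81997401, just beyond it, was called in 4 GF+HFM libraries at 57.5, 31.6, 37.3 and 48.4 and in no CV+HFM library (Fisher's exact test, p = 0.0286, adjusted p = 0.824). It was not called 4 to 0 when peaks narrower than 300 bp were left out, since its GF+HFM 2 peak measured 243 bp.

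Motifs were searched on both strands of a 200 bp window over the best-covered bases of each site. With up to 2 mismatches in 12 bases, a pair of AGGTCA elements 1 base apart, the arrangement HNF4A dimers bind, was found in 7 of the 36 windows (19.4%) and in 14.6% of 45324 windows of all merged sites. Pairs 4 bases apart, an arrangement bound by liver X receptor with its partner RXR, were found in 2 (5.56%) and in 3.76%. The core CAAAGTCCA was found without mismatch in 0 member windows and in 5.98% of all windows, and with up to 1 mismatch in 9 (25%) and in 33.6%. The sterol regulatory element TCACNCCAC, bound by SREBF2, was found in 0 windows and in 0.715% of all. The mismatched core search was added after the data were seen, and its matches can overlap those of the paired elements. These are matches of letters and not measured binding sites.

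Of the paired AGGTCA elements, those with the fewest mismatches lay at Soat2 and Scarb1. In Soat2 intron 2, plus strand, chr15:101983257-101983276, a pair of overlapping matches, each with 1 mismatch, formed 3 elements in a row (capitals). This site was called in 4 GF+HFM mice and in CV+HFM 1. The Soat2 site 23.3 kb from the start held a match on each strand with 2 mismatches, and a Scarb1 intron 1 site called only by GF+HFM 4 held a pair 4 bases apart with 1 mismatch.
Soat2 intron 2, chr15:101983257-101983276: AGGTCAcAGTTCAgAGGTCA
Soat2 23.3 kb from the start, plus strand, chr15:102004251-102004263: AGTTCAaAGGCCA
Soat2 23.3 kb from the start, minus strand, chr15:102004162-102004174: AGGTCAcAGGTAG
Scarb1 intron 1, plus strand, chr5:125804569-125804584: AGGCCAgcgcAGGTCA

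The wider cholesterol pathway was described in the same way, without a test of the list. Of 34 other genes of cholesterol synthesis, sterol sensing and uptake, and sterol trafficking and storage, 33 were matched to the annotation by symbol, all but Hmgcs1, and 30 had at least 1 site, 9 of them over the start, where 65.5% of all protein-coding genes had a site and 14.8% had it over the start. Of their 136 sites, 114 (83.8%) were called in more GF+HFM libraries, beside 86.5% of all merged sites, and 4 in more CV+HFM libraries (2.94%, beside 2.86%). All 8 libraries called 14 (10.3%, beside 7.56%), and 5 were called 4 to 0 (3.68%, beside 2.79%). Among the genes with many sites were Srebf1 (11) and Dhcr7 (10), and Fdft1, Npc1 and Lipa with 7 each. DHCR7 is a reductase at the end of cholesterol synthesis, and SREBF1 mainly drives fatty acid synthesis. No site was found at Cyp51, a demethylase of the synthesis pathway, or at Mylip, which promotes breakdown of the low-density lipoprotein receptor.

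By the test of width rank, 0 of the 3 member sites and 0 of the 14 pathway sites that could be tested passed an adjusted p of 0.05 (limma), beside 0.116% of the 3445 sites tested, all lower in CV+HFM. At an unadjusted p of 0.05 the members' count was also 0 and that of all tested sites 398. The marker genes of enterocytes, Vil1, Fabp2, Alpi, Sis, Cdh17 and Cdx2, all had HNF4A sites (62 in all), whereas the liver genes Alb and Cyp7a1, the leukocyte gene Ptprc, the mesenchymal gene Pdgfra and the endothelial gene Cdh5 had none. Of the other markers, Cyp2e1, Cd3e and Col1a1 had 2 sites each and Des and Pecam1 had 3 each.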

How the data were processed

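Reads were mapped by the authors to mm9 with Bowtie2, and peaks were called in each mouse with MACS2 2.1.1.20160309 against input DNA, with a false discovery rate threshold and a bandwidth of 300 bp. The labels list 1 input library per condition. The deposited lists hold only the name and position of every peak, as start and end in bp, an other unit than a count or a score, and replicates were not pooled. The width percentile replaced the missing strength. Peaks of 21 chromosomes were checked against NCBIM37 lengths, and 0 chromosomes had a peak beyond the end. Genes follow GENCODE M1, and a gene's start is that of its transcript with the most exons. Calls in 4 against 4 libraries were tested with a two-sided Fisher's exact test (scipy 1.17.1), and normal scores of width rank by limma 3.58.1 in R 4.3.3 over 3445 sites, both with Benjamini-Hochberg adjustment over all sites tested. On simulated data the limma step recovered 58% of 200 sites shifted by 3 SD. Only sites called in all 8 libraries entered it, so a site with a missing call could not be tested. All 7 genes were named, and sites were described singly if within 1 kb of a start, called in all 8 libraries, called 4 to 0, called in more CV+HFM libraries or widest in their locus. Of the pathway genes, up to 5 with the most sites and up to 5 with none were to be named. Ties were all kept, and some genes that these rules would name are not reported here. The genes, sites and lists were chosen with earlier results of these data known. RNA-seq and H3K27ac files were not used here.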

Additional observations from a re-analysis of the deposited data

Results flagged for a closer look

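Among 42 groups of 4 values (sites called per library and width percentiles), 6 held a library far from the other 3 by Dixon's criterion. It flags about 1 in 20 groups of continuous values by chance. That rate does not hold for counts, where any value beside 3 identical ones is flagged. For the sum of member sites, GF+HFM 3 called 29 where the other GF+HFM libraries called 27. At Abca1, GF+HFM 4 called 4 sites and the others 3, and at Scarb1 it called 6 and the others 5. At Srebf2, GF+HFM 1 called 3 sites and the others 2. At Soat2, CV+HFM 1 called 4 sites and the other CV+HFM libraries 2. These 5 are steps of 1 or 2 sites beside identical counts. At the Abcg5 site over exons 5 and 6, the width percentile of GF+HFM 2 was 89.4 and those of the others were 98.8 to 99.5.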

How the results depend on the processing

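The number of member sites called in 4 GF+HFM mice and 0 CV+HFM mice, 2 in the report, was 4 of 61 with 50 kb either side (2.79% of all sites), 1 of 26 with peaks of at least 300 bp (3.73%), 0 of 7 with the 4533 widest peaks of each list (0.515%), and 2 to 8 with 1 library left out. The number called in more GF+HFM libraries, 31 of 36, was 52 of 61 with 50 kb (86.5% of all sites) and 3 of 7 with the widest peaks (40.3%), and 29 to 31 with 1 library left out. The CV+HFM minus GF+HFM difference in sites called per library, -15.2, was -26.2 with 50 kb, 0 with the widest peaks, -0.00814 percentage points as a share of own peaks and -19.5 to -12.5 with 1 library left out. Within peak-name identifiers ending in A it was -12 (2 GF+HFM mice and 3 CV+HFM mice), and within those not ending in A it was -24, with 1 CV+HFM library. No member site passed the Fisher or limma test under the alternatives run. For the Fisher test this says nothing. With so few libraries, its smallest possible p could pass the adjustment only if far more sites reached it. With 10 kb either side, 50% coverage or midpoint windows, the counts stayed within 1.5 times those reported. The sites called 4 to 0 were not always the same ones. With peaks of at least 300 bp the 1 such site was that in Abca1 intron 2, neither of the 2 reported. With 50% coverage they were the Abca1 intron 2 site, the Srebf2 site chr15:81996949-81997401 and the Abcg5 site 32.3 kb from its start. The limma test had no member site to test with 50% coverage or 300 bp peaks and was not run on midpoint windows of equal width. Deviations of same-numbered libraries correlated at 0.0534, 0.0746, -0.0776 and 0.138, and those of differently numbered libraries at -0.132 to 0.137. These values show no pairing of the mice by number, but so few libraries cannot exclude it. With the replicate block 0 member sites passed by limma. The exact sign test over 4 pairs also gave 0, but it cannot go below p = 0.125 and says nothing here. Depth is unknown, so a missing peak does not show that HNF4A was absent.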
